A study of Mus musculus with 8 samples.

Results

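The Egr genes (Egr1, Egr2, Egr3 and Egr4) and the Nr4a genes (Nr4a1, Nr4a2 and Nr4a3) were examined for binding of the cohesin subunit SMC1 in mouse cortical neurons grown in culture. The 7 members were taken by name from 21900 protein-coding genes of the RefSeq annotation of GRCm38.p6. Every SMC1 peak within 50 kb of a gene body was assigned to the member: 13 of 12359 peaks in resting neurons and 6 of 1684 peaks after NMDA. Because the NMDA list is the shorter one, a site missing from it is not thereby shown to be lost.

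The neurons were wild type, dissociated from embryonic day 16 Swiss-Webster mice and kept for 13 days in vitro. Resting cultures had no treatment. Stimulated cultures received 50 µM NMDA, which opens NMDA-type glutamate receptors, for 10 min, followed by 50 min without the drug. Each condition had 2 SMC1 ChIP samples and 2 input samples. The labels call the ChIP replicates biological and do not say whether they came from separate litters. The growth notes also describe etoposide, a topoisomerase poison, which no sample has as its treatment. A peak list holds no expression values, so the labelled cell type could not be checked against marker genes.

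Neurons switch on these genes within minutes of synaptic activity, without new protein synthesis, and their products then control later genes. EGR proteins are zinc finger factors that bind GC-rich promoter and enhancer sites. NR4A proteins are orphan nuclear receptors that bind DNA without a known natural ligand. Calcium entry through NMDA receptors reaches their promoters through CREB at cyclic AMP response elements (CRE), through serum response factor at serum response elements (SRE) and through MEF2. Cohesin extrudes chromatin loops that can bring enhancers near such promoters, and is often stopped at sites of the insulator protein CTCF.

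RefSeq promoter windows of GRCm38.p6, from 250 bases before to 50 bases after an annotated transcription start, show where the activity elements and the SMC1 peaks lie. Windows were held for 5 members. They are printed 5′ to 3′ on the strand of the gene, with each copy of the CRE core TGACG (or CGTCA on the other strand) and each SRE in capitals. The 3 Egr2 windows and the windows of Egr4 and Nr4a3 are shown because a resting peak covers part or all of them (the other 2 Egr2 windows, also covered in part, largely repeat the last one), and those of Nr4a1 and Nr4a2 because no listed peak touches them.
Egr2, chr10:67535249-67535548, plus strand: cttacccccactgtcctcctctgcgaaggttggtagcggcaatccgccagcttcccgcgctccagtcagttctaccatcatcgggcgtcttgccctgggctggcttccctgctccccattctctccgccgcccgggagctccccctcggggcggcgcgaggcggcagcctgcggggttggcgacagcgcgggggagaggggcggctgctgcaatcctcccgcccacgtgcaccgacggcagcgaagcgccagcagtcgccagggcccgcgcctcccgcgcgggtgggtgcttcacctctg
Egr2, chr10:67537316-67537615, plus strand: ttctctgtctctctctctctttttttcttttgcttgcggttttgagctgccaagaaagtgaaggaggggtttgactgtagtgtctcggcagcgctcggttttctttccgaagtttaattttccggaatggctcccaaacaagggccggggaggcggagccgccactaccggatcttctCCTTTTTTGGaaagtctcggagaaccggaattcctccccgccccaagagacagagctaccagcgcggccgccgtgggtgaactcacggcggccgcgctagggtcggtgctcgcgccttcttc
Egr2, chr10:67537619-67537918, plus strand: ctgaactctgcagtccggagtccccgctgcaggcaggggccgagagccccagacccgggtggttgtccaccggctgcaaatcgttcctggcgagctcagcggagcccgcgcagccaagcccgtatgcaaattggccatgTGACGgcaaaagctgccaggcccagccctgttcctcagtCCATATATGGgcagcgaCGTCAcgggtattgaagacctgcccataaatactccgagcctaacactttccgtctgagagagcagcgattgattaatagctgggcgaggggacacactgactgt
Egr4, chr6:85513540-85513839, minus strand: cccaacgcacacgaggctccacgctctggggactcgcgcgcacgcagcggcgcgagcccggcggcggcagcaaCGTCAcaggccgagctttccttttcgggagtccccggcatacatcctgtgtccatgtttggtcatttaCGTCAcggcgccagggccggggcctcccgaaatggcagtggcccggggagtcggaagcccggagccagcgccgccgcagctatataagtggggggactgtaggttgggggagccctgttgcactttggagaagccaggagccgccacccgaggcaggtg
Nr4a3, chr4:48045055-48045354, plus strand: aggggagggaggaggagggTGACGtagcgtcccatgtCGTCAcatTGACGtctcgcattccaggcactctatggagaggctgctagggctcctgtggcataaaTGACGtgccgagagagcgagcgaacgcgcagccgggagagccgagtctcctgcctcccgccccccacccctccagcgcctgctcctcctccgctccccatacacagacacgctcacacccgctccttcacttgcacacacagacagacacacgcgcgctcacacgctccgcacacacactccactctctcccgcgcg
Nr4a1, chr15:101266596-101266895, plus strand: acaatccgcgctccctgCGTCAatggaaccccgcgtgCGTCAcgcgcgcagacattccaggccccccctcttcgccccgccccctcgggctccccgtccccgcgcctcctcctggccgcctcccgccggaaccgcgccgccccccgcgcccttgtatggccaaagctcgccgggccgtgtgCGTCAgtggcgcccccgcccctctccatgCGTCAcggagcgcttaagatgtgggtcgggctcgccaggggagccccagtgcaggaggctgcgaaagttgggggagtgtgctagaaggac
Nr4a2, chr2:57123954-57124253, minus strand: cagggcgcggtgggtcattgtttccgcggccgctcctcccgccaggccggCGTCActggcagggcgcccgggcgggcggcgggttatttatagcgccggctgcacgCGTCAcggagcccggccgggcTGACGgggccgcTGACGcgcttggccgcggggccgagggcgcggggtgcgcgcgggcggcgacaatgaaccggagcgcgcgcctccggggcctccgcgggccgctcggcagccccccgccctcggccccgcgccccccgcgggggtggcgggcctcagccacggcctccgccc

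All 3 Nr4a windows held 4 copies of the CRE core, and at least 4 were found in 76 of 32851 RefSeq windows (0.231%). Egr4 held 2 copies, as did the last printed Egr2 window, and 5.01% of all windows held at least 2. No window of the members held the full CRE TGACGTCA, of which the core is part and which 1.79% of all windows held. The most upstream Egr2 window, of which the strongest Egr2 peak covers 264 bases, held none of the motifs searched. An SRE began 72 bases before the start in each of the other printed Egr2 windows, against 1.63% of all windows with an SRE. In the last of them it stood between the CRE cores, which began 111 and 55 bases before the start.

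The Nr4a1 window also held the EGR site GCGGGGGCG, 60 bases before its start (2.91% of all windows). It held the CTCF core motif as well, 147 bases before the start (2.43% of all windows). The Nr4a2 window had a MEF2 site 167 bases before its start (3.19%). No printed window held the other EGR site searched, GCGTGGGCG (0.612%), or the NR4A site AAAGGTCA (1.51%). Both strands were searched throughout. A match of letters shows no binding, and its absence says only that these letters are not in the window.

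A resting peak overlapped a window of 3 of the 5 members that have one, and an NMDA peak of 0 of 5. Of all single RefSeq windows, 9.27% were overlapped by a resting peak and 3.53% by an NMDA peak. These shares count windows and not genes, and Egr2 alone has 5 windows, so they are not a matched background. At Egr4 and Nr4a3 the overlap was 59 and 39 bases at the 3′ end of the window, which hold no CRE core.

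SMC1 peaks were found near most members in resting neurons and near 4 of them after NMDA. Within 50 kb, 5 of 7 members had a resting peak (71.4%), against 62.3% of all protein-coding genes. An NMDA peak was found near 4 of 7 (57.1%), against 16.9%. Egr2, Nr4a1 and Nr4a3 had peaks in both lists, as had 15.3% of all protein-coding genes. They were 3 of the 5 members with a resting peak, and an NMDA peak lay near 24.6% of all genes that had a resting one. Egr1 and Egr4 had resting peaks only (47.0% of all genes), Nr4a2 an NMDA peak only (1.51%) and Egr3 neither (36.2%).

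Near the gene bodies the counts changed little. Within 10 kb, 5 of 7 members had a resting peak and 4 of 7 an NMDA peak, against 38.2% and 8.94% of all genes. Within 2 kb the counts were 4 and 3, against 28.6% and 7.21%. The members had a median of 2 resting peaks and 1 NMDA peak within 50 kb, and all protein-coding genes 1 and 0. At least 2 resting peaks were found near 5 of 7 members, against 35.0% of all genes.

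**Figure D1:**
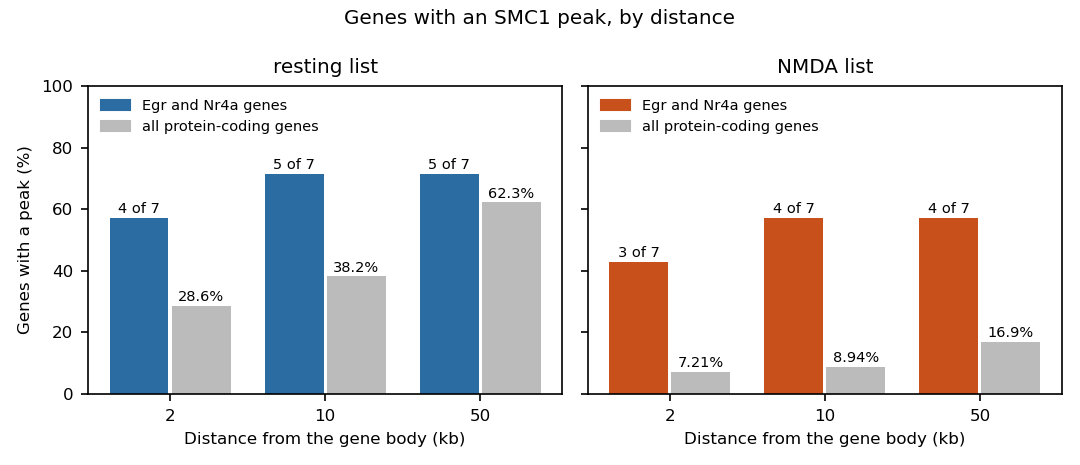
Share of genes (%) with an SMC1 peak within 2, 10 and 50 kb of the gene body, for the 7 Egr and Nr4a genes (coloured bars, with counts) and all 21900 protein-coding genes (grey bars), in the resting list (left) and the NMDA list (right). The coloured bars stand above the grey bars at each distance, and the grey resting bar comes nearest at 50 kb (62.3% against 5 of 7).

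Peak strength is the authors' −log10 p of the peak caller, summed over both replicates, and a percentile gives the rank of a peak among all peaks of its own list. The depth of each library is unknown and a −log10 p grows with depth, so strengths of the resting and NMDA lists are set side by side without a test. With 2 replicates against 2, no exact permutation test of replicate values could go below p = 0.33. The replicate columns carry no replicate numbers and are called the first and the second.

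**Figure D2:**
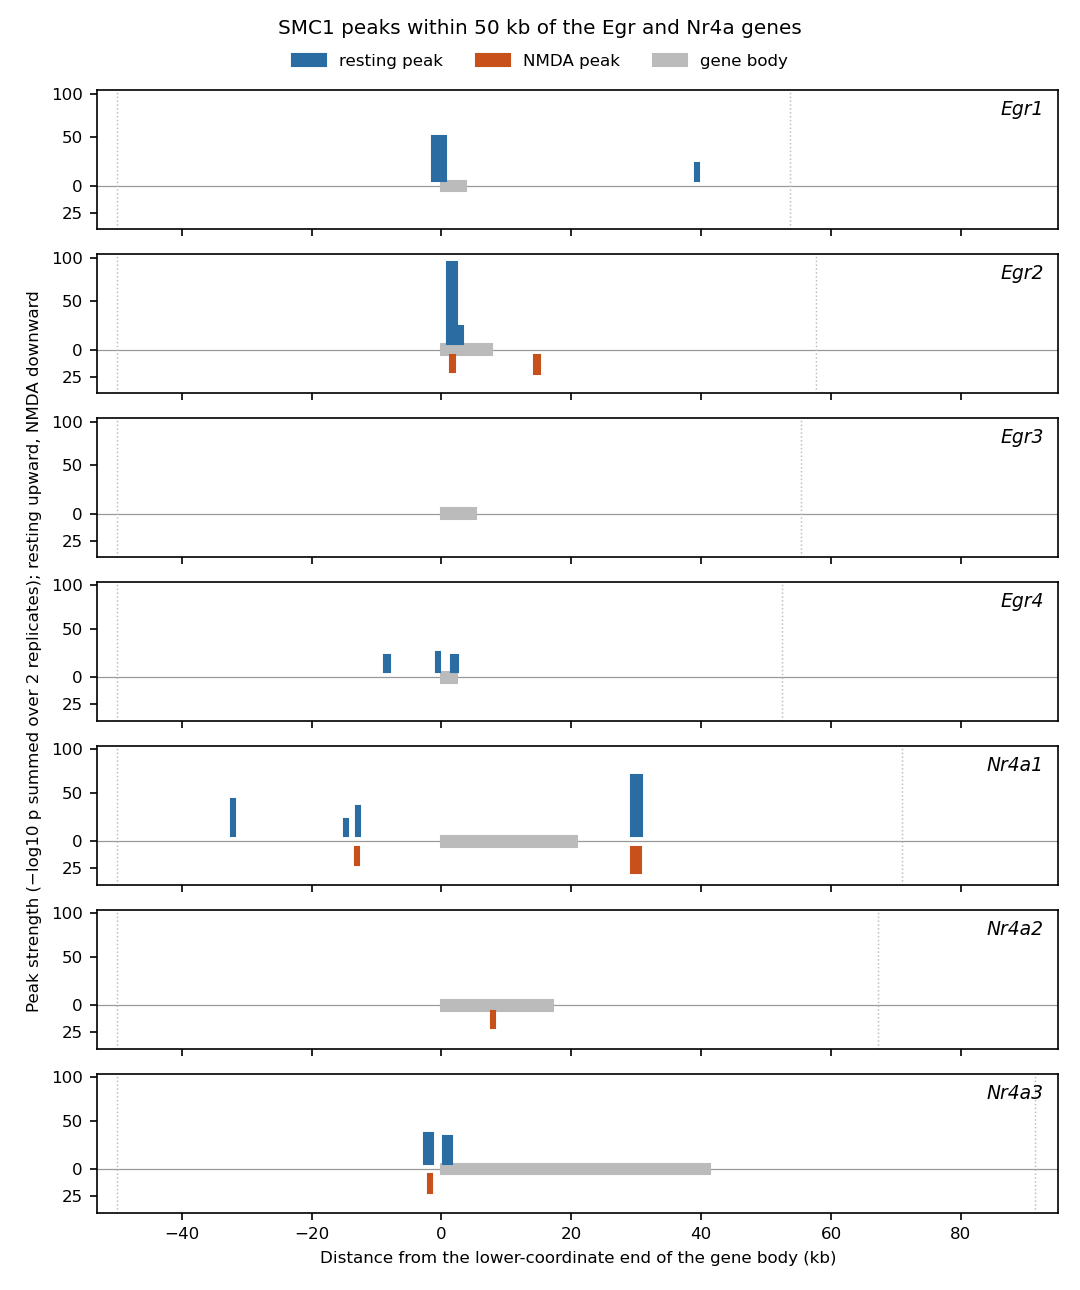
SMC1 peaks within 50 kb (dotted lines) of each Egr and Nr4a gene, by distance in kb from the lower-coordinate end of the gene body (grey bar). Bar height is peak strength, upward for resting peaks and downward for NMDA peaks, measured from the edge of the grey band, with narrow peaks widened for display. The tallest resting bars are at Egr2 (95.4) and on the right of Nr4a1 (70.6), and the Egr3 panel is empty.

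Egr2, a hindbrain and myelination regulator that neurons also induce, had the strongest resting SMC1 peak of the 7 genes. The gene lies on chromosome 10 from 67534469 to 67542188. The peak covered 67535285 to 67536861, wholly inside the gene body, and the replicates had −log10 p values of 54.1 and 41.3. The sum of 95.4 ranked 235 among the 12359 resting peaks, and both replicate values lay above the 96th percentile of their columns (98.3 and 96.5). The replicate summits fell 77 and 308 bp after the most upstream Egr2 start in the RefSeq windows, at 67535499. The noncoding gene Gm32255 overlaps the same segment, so the peak cannot be given to either gene alone.

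A weaker resting peak followed 97 bp further on, at 67536959 to 67537839, with replicate values of 11.3 and 10.0 (sum 21.2, percentile 16.8). It covered all of the Egr2 window that starts at 67537316 and 221 bases of the one at 67537619, so both SREs and both CRE cores of these windows lie under it. Its replicate summits were 521 bp apart, which leaves its centre loosely placed.

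After NMDA a peak lay within the strong resting one, at 67535864 to 67536541, with replicate values of 8.96 and 10.4 (sum 19.4, percentile 13.2 of the NMDA list). It spanned 43.0% of the resting peak. Its replicate summits were 33 bp apart and lay between 320 and 584 bp from the resting summits, further than the 231 bp between the resting replicates. No NMDA peak touched the printed Egr2 windows. The NMDA peak inside the gene overlapped a promoter window of the noncoding gene Gm32255, so it cannot be given to Egr2 alone. A further NMDA peak, at 67548797 to 67549581, was 6609 bp from Egr2 and covered the start of Ado, a thiol dioxygenase gene (11.7 and 10.8, sum 22.5, percentile 46.3). No resting peak overlapped it.

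Egr1, the family member most often used as a marker of neuronal activity, had a strong resting peak and none after NMDA. The gene is on chromosome 18 from 34861207 to 34864956. The resting peak at 34859798 to 34861976 was the widest near any member (2179 bp), with 770 bp inside the gene and 1409 bp beyond its lower-coordinate end. Its replicate values were 21.1 and 30.2 (sum 51.3, percentile 84.9), with summits 61 bp apart.

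The nearest NMDA peak was 89.2 kb from Egr1, at the gene Hspa9. Among resting peaks of the same decile of strength that were centred at most 1 kb from a gene end, 30.6% overlapped an NMDA peak. At least as strong as the Egr1 peak were 1865 resting peaks, and 1340 of them had no NMDA peak over them. A weak second resting peak lay 35.5 kb away, nearest to the translation release factor gene Etf1 (11.3 and 8.34, sum 19.7).

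Egr4, which is needed for male germ cell maturation, had 3 weak resting peaks and no NMDA peak within 50 kb. The gene is on chromosome 6 from 85511121 to 85513589. A peak at 85512598 to 85513598, lay almost wholly in the gene and reached 59 bases into its printed window (7.38 and 12, sum 19.4, percentile 8.25). Another lay 312 bp beyond the other end of the gene, at 85510434 to 85510809 (8.63 and 15.2, sum 23.8, percentile 27.5). The third, 7987 bp away, covered the start of Fbxo41, a gene for an F-box protein (12.3 and 7.44, sum 19.8).

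All 3 Egr4 peaks were under the resting list's median strength of 30.2, and their replicates ranked them differently. The peak 312 bp from the gene stood at percentile 8.66 of the first column and 53.1 of the second. In their deciles, 9.98 and 12% of resting peaks at gene ends overlapped an NMDA peak.

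Egr3, which muscle spindles need to form, had no peak within 50 kb in either list. The gene is on chromosome 14 from 70077317 to 70082613. The nearest resting peak was just outside the limit, 52.6 kb away inside Bin3 (18.4 and 19.7, sum 38, percentile 67.7). The nearest NMDA peak was 215 kb away, in Pebp4. A further peak outside the limit lay 58.5 kb from Egr4, at the shared start region of Pradc1 and Cct7, and the outermost peak inside it was that of Egr1 at 35.5 kb. Lists of reproducible peaks cannot show that SMC1 is absent from Egr3.

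Nr4a1, the orphan receptor gene induced by activity in neurons and by antigen in T cells, had the most peaks within 50 kb of the 7 genes, none of them in its body or within 2 kb of it. Each of these 6 peaks had another gene nearer to it, so Nr4a1 has 0 peaks when a peak is given to its nearest gene alone. It lies on chromosome 15 from 101253902 to 101274795, and the start site of its printed window is 101266846. There were 4 resting peaks within 50 kb, a number reached by 6.05% of protein-coding genes, and 2 NMDA peaks, reached by 1.90%. Both NMDA peaks overlapped resting ones.

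The strongest Nr4a1 peak lay beyond the gene's far end, 8263 bp away at 101283058 to 101284858, and covered the whole promoter window of Atg101, an autophagy gene. Its resting replicate values were 30.7 and 39.9 (sum 70.6, percentile 94.2). The NMDA peak there, at 101283141 to 101284616, had 21.1 and 8.80 (sum 29.9, percentile 82.2) and was the strongest NMDA peak of the group. The NMDA replicates disagreed on it: it stood at percentile 89.4 of the first column and 30.5 of the second, and their summits were 460 bp apart, against 8 bp at rest. Because the peak sits on the Atg101 start, it cannot be given to Nr4a1.

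On the other side, a resting peak at 101240744 to 101241278 lay 12624 bp from the gene body and about 26 kb before the printed start. Grasp, a gene for a scaffold protein, was nearer (7988 bp), so this site cannot be given to Nr4a1 either. The replicates had 15.9 and 18.4 (sum 34.3, percentile 60.3). The NMDA peak over it, at 101240735 to 101241159, had 14.4 and 7.04 (sum 21.4, percentile 35.6). At this site the summits of all 4 replicates fell within 36 bp of each other. Among 1328 overlapping pairs of resting and NMDA peaks the median of that range was 316 bp, and 28 pairs (2.11%) were at 36 bp or less. No annotated gene end was within 1 kb of this site, and of resting peaks of like strength away from gene ends 5.33% overlapped an NMDA peak.

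The other Nr4a1 peaks were found at rest alone. A peak 1164 bp from the last, at 101238957 to 101239579, was weak (9.15 and 10.5, sum 19.7) and also nearest to Grasp. A stronger one lay 31.7 kb from the gene, at the noncoding genes A330009N23Rik and AU021063 (31.9 and 10.8, sum 42.8). Its replicates differed by a factor of 2.95, the widest disagreement of the 13 resting peaks.

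Nr4a2, the gene for the receptor Nurr1 that midbrain dopamine neurons need, was the 1 member with an NMDA peak and no resting peak. It lies on chromosome 2 from 57106830 to 57124003. The NMDA peak at 57114398 to 57115018 was inside the gene, with replicate summits 9074 and 9291 bp after the printed start. Its replicate values were 7.59 and 13.1 (sum 20.7, percentile 26.9).

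This peak was near the limit for entry into the list. Its IDR, the irreproducible discovery rate that ranks how well replicates match, was 0.047 against the list limit of 0.05. It stood at percentile 1.40 of the first replicate column and 78.5 of the second. The nearest resting peak was 795 kb from Nr4a2 (11.4 and 17, sum 28.4). Peaks that failed the limit were not analysed here, so signal under the limit at rest was not tested.

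Nr4a3, the gene for the receptor Nor1, had SMC1 peaks on both sides of its start at rest and kept 1 of the sites after NMDA. It lies on chromosome 4 from 48045078 to 48086447. The upstream resting peak at 48042404 to 48043841, 1237 bp before the gene, had 19.7 and 16.4 (sum 36.1, percentile 64.4). The second, at 48045316 to 48046655, lay inside the gene and reached 39 bases into the printed window (16.8 and 16, sum 32.8, percentile 56.5).

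The NMDA peak overlapped the upstream site, at 48042998 to 48043650, with 8.83 and 12.3 (sum 21.1, percentile 30.8). It spanned 45.4% of the resting peak. The resting replicates placed their summits 942 bp apart there, and the NMDA summits fell 1810 and 1999 bp before the start, near the first resting replicate (1787 bp) and not the second (2729 bp). This upstream site was the other shared one with no gene end within 1 kb of its midpoint, a class in which 5.33% of resting peaks of like strength were shared. The peak inside the gene was not found after NMDA, as for the second Egr2 peak and the Egr1 and Egr4 peaks at their genes.

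**Figure D3:**
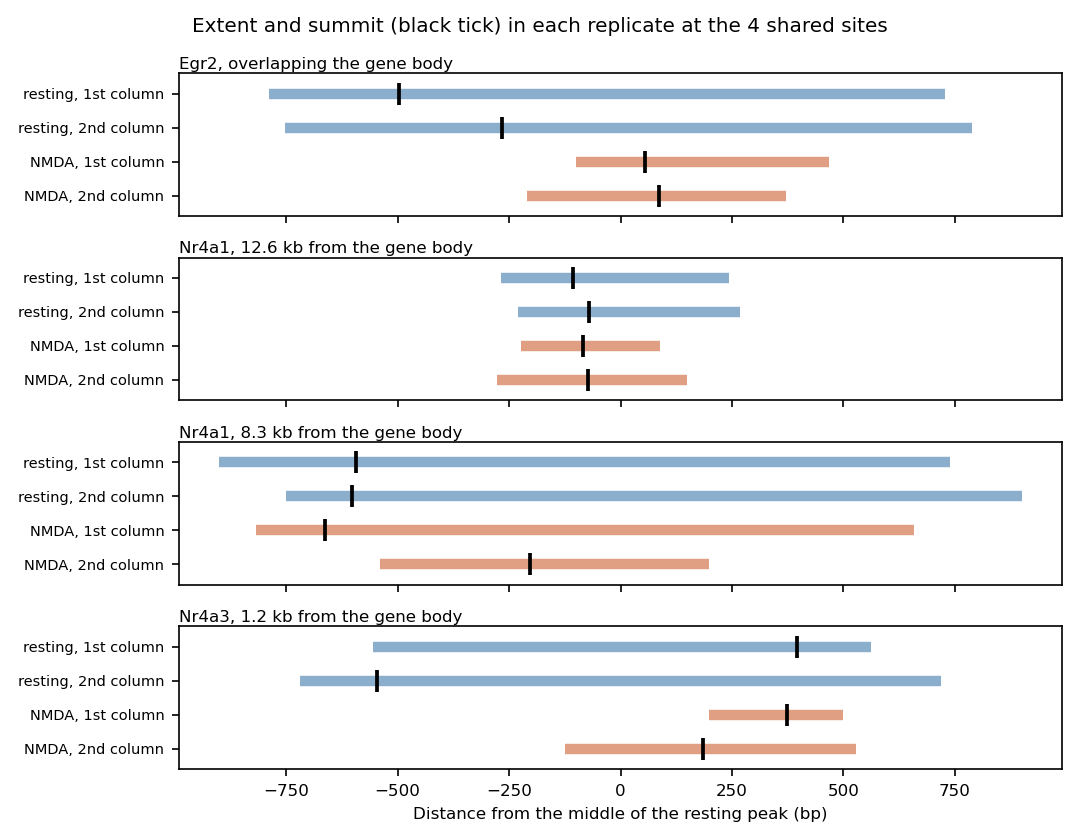
Extent (bars) and summit (black ticks) of the peak in each replicate at the 4 sites found in both conditions, by distance in bp from the middle of the resting peak (blue, resting; orange, NMDA). The 4 summits coincide at the Nr4a1 site 12.6 kb from the gene body (range 36 bp) and are spread over 942 bp at Nr4a3.

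Over all members, 4 of 13 resting peaks overlapped an NMDA peak (30.8%, exact Clopper-Pearson 95% interval 9.09 to 61.4%, counting error over peaks only), against 10.7% of all resting peaks. The interval includes that background, which is not matched for position or strength. The interval treats peaks as independent, though the 13 lie near 5 members and 2 of the 4 shared ones near Nr4a1, so it is no test. Of the 13 peaks, 8 were centred within 1 kb of a gene end, against 29.0% of the list. In each decile of strength, resting peaks at gene ends were shared more often than the others. The shared Egr2 and Atg101 peaks belong to the top decile at gene ends, in which 54.6% of resting peaks were shared. Away from gene ends 26.2% of that decile were shared. Ends of any annotated gene count here, and the end 107 bp from the middle of the Egr2 peak is not an end of Egr2. By family, 1 of 7 Egr and 3 of 6 Nr4a resting peaks were shared. In the other direction 4 of 6 NMDA peaks overlapped a resting peak (66.7%, interval 22.3 to 95.7%), against 75.8% of the whole list. The lists thus met within 50 kb of 1 Egr gene and 2 Nr4a genes. Both shared sites of Nr4a1 lay nearer to another gene (Atg101 or Grasp).

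Resting peaks near the members ran from percentile 8.25 to 98.1 of their list, and NMDA peaks from 13.2 to 82.2. Resting peaks had a median of 32.8 over the 13, against 30.2 in the list, and 7 of 13 were above the list's median. The 6 NMDA peaks had a median of 21.2, against 23.0, and 1 of 6, at Atg101, was above the list's median. Their widths had a median of 881 bp at rest (list 644 bp) and 666 bp after NMDA (list 1033 bp). Midpoints within 1 kb of a gene end were found for 8 of 13 resting peaks (29.0% in the list) and 3 of 6 NMDA peaks (61.6% in the list).

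Agreement between replicates limits these values. The larger replicate value was between 1.05 and 2.95 times the smaller at rest, with a median of 1.31 (list 1.40), and the first column was higher at 7 of 13 peaks. After NMDA the median was 1.56 (list 1.45) with a highest value of 2.40, and the first column was higher at 3 of 6. By percentile, the first NMDA column ranked both Nr4a1 sites higher, and the second the peaks at Egr2, Ado, Nr4a2 and Nr4a3. The order of the members by NMDA strength therefore depends on the replicate used.

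**Figure D4:**
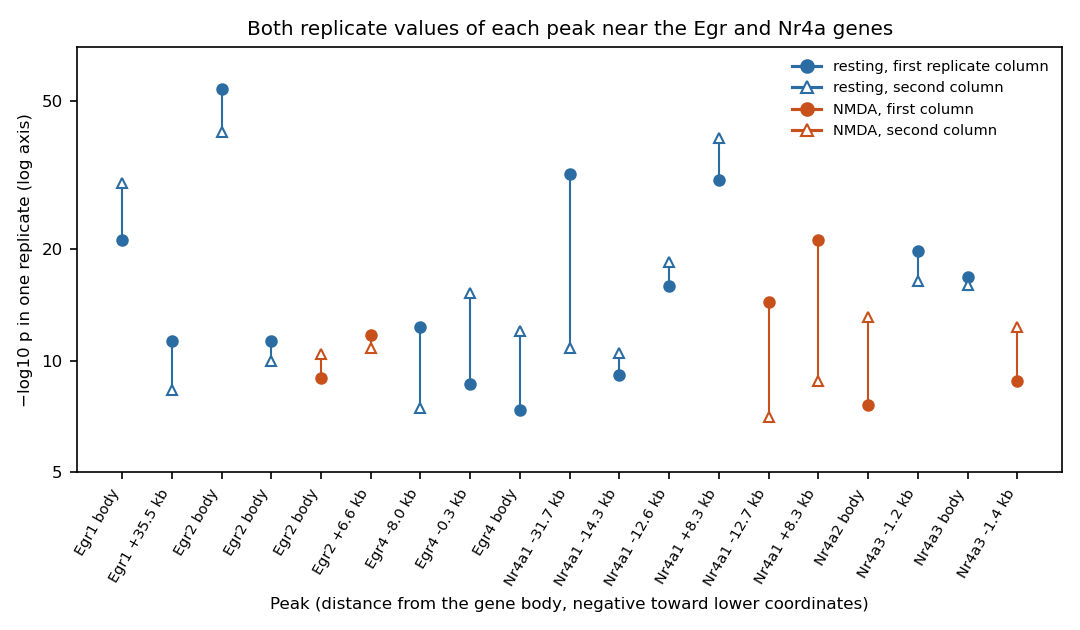
The −log10 p (log axis) in each replicate of the 19 peaks within 50 kb of an Egr or Nr4a gene, with a line joining the replicates (blue, resting; orange, NMDA; filled circle, first column; open triangle, second column). The Egr2 body peak at rest is highest in both replicates (54.1 and 41.3), and the NMDA values lie between 7.04 and 21.1.

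At a stricter IDR of up to 0.01, 4 of 7 members had a resting peak (43.6% of protein-coding genes) and 0 of 7 an NMDA peak (3.88% of genes). The lowest IDR of an NMDA peak near a member was 0.012, at Atg101, and that limit left 350 of the 1684 NMDA peaks.

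Most other genes of these pathways also had a resting peak. EGR and NR4A act with partners, and 4 of 5 partner genes (Nab1 and Nab2, corepressors of EGR proteins, and the retinoid X receptor genes Rxra, Rxrb and Rxrg) had a resting peak within 50 kb (62.3% of all genes). An NMDA peak was found near 1 of 5 (16.9% of all genes), Rxrg. Its strongest resting peak, inside the gene, had 60.2 and 24.7 (sum 84.9) and the strongest NMDA peak 12.2 and 13.8 (sum 26.0).

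Of 15 genes for factors that act on CRE, SRE or MEF2 sites, 14 had a resting peak and 5 an NMDA peak, against 62.3% and 16.9% of all protein-coding genes. The 5 were Srf, Creb1, Crem, Mef2a and Mef2d. The CREB gene Creb1 had the strongest, 12.2 kb away at rest (42.1 and 32.6, sum 74.7) and 12 kb away after NMDA (23.0 and 12.8, sum 35.8), and 1 resting peak near it was shared. For Srf, the serum response factor gene, the strongest peaks had sums of 26.4 at rest and 18.1 after NMDA, at different sites. Crem had sums of 28.4 and 30.8, Mef2a 22.6 and 26.9, and Mef2d 58.2 and 24.2. For these genes too, the strongest resting and NMDA peaks did not overlap, though 1 of the 3 resting peaks near Mef2a was shared. No resting peak near Srf, Crem or Mef2d was shared.

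Genes described as targets of EGR or NR4A factors (Arc, Syn1, Syn2, Cdk5r1, Bdnf, Th and Slc6a3) were near a resting peak for 6 of 7 and near an NMDA peak for 0 of 7, again against 62.3% and 16.9% of all genes. The strongest was 29.9 kb from Slc6a3 (21.9 and 31.4, sum 53.4). No test was made of these counts. Th and Slc6a3 belong to dopamine neurons, and Arc is an early response gene itself.

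Of 16 other early response genes, 15 had a resting peak within 50 kb (93.8%) and 9 an NMDA peak (56.2%), against the same 62.3% and 16.9%, and close to the 57.1% of the Egr and Nr4a genes. These genes had a median of 3 resting peaks and 1 NMDA peak. The 9 were Fos, Fosb, Jun, Junb, Jund, Npas4, Ier2, Dusp1 and Gadd45b. Each of the 9 had at least 1 shared resting peak, and of all NMDA peaks 75.8% overlapped a resting one. Their strongest resting peaks ran from 40.3 near Ier2 to 122 near Fosb, and their strongest NMDA peaks from 18.6 near Fosb to 55.4 at Jun.

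The genes whose peaks resembled those of a member most closely were found among 1593 protein-coding genes with peaks in both lists within 10 kb. The measure was the Euclidean distance between percentiles of the strongest peak in the 4 replicate columns. For Egr2 the strongest NMDA peak is the one at the Ado start, and nearest were Gse1 (4.40 percentile points) and Gas1 (5.01). For Nr4a1 both peaks are those at the Atg101 start, and nearest were Caskin2 and Llgl2 (4.37 each, resting on the same peaks). These matches thus describe peaks that lie at neighbouring genes in part or in full. Nearest to Nr4a3 were Plxnc1 (11.4) and Smarca2 (11.9).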

How the data were processed

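SMC1 ChIP-seq and input DNA were collected from resting and NMDA-treated cortical neurons, 2 samples in each of 4 groups, taken with their replicate numbers from the sample titles. FastQC, Trimmomatic, BWA, SAMtools and MACS2, without versions, and the builds mm10 and GRCm38.p6 are named per the submitters' processing notes. Their settings were not given in the sources used here. For each condition the authors deposited a joint peak list of both replicates, whose 20 unnamed columns follow the output of the IDR tool. The deposited lists hold a −log10 p value for each of 2 replicates, a strength score that equals their sum on every line, an IDR score, the −log10 IDR, and other columns with peak extents and summit offsets. The lowest −log10 IDR of each deposited list corresponds to an IDR of 0.05. The fold enrichment field is a placeholder in the deposited lists and was not used. Depth per library is unknown.

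Distances were measured from the nearest edge of a peak to the RefSeq gene body, and peaks overlapping by at least 1 bp were called shared. Summits are those of the replicates, because the summit of the joint peak lay outside both replicate summits in 9.81% of resting and 21.7% of NMDA peaks. All members and all their peaks are named, with list genes that have peaks in both lists, the nearest genes of peaks, and 2 genes of most similar percentiles per member with peaks in both lists within 10 kb. The members and lists were chosen with earlier results of these data known, so no enrichment test was made and nothing here is independent support. Of 7 members 5 matched RefSeq promoter windows of GRCm38.p6. Counting and overlap steps (Python 3.11.15, pandas 2.3.3, scipy 1.17.1) were tested on simulated data. Alternatives were other distances, a stricter IDR, other overlaps, single replicate columns, the IDR score and nearest-gene assignment. Input libraries were not used here beyond the authors' peak calling.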

Additional observations from a re-analysis of the deposited data

How the results depend on the processing

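No paired analysis was possible because each condition has 1 joint list and its replicate columns carry no numbers. The count of members with a resting peak stayed between 4 and 5 with peaks within 10 or 2 kb, at an IDR up to 0.01 and with peaks whose nearest gene is the member, and the NMDA count between 3 and 4 except at an IDR up to 0.01, which left 0 members and 0 NMDA peaks, so that the shared percentage was 0.0. Peaks near the members fell from 13 to 7 resting and from 6 to 3 NMDA peaks within 2 kb, and to the same 7 and 3 when a member had to be the nearest gene; at an IDR up to 0.01, 7 resting peaks were left. The shared percentage was 30.8 with an overlap of 50%, 33.3 within 10 kb and 53.8 with an NMDA peak within 5 kb. With 1 replicate column at a time, the percentile of the strongest resting peak ranged from 71.7 to 89.7 for Egr1, 96.5 to 98.3 for Egr2, 8.66 to 53.1 for Egr4, 88.8 to 95.9 for Nr4a1 and 58.8 to 68.0 for Nr4a3. For NMDA peaks it ranged from 39.5 to 59.5 for Egr2, 30.5 to 89.4 for Nr4a1, 1.40 to 78.5 for Nr4a2 and 9.95 to 74.0 for Nr4a3. Ranked by IDR score, which is capped, the strongest resting peaks of Egr1, Egr2, Nr4a1 and Nr4a3 tied at 79.6. The cause of these shifts was not tested. Leaving out a replicate could not be repeated for the lists themselves, since only jointly called peaks are in them.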

Other observations

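Between 50 and 100 kb from the members lay 6 more resting and 3 more NMDA peaks. A resting peak 58.5 kb from Egr4 lay at the start region of Pradc1, a gene for a secreted glycoprotein, and Cct7, a chaperonin subunit gene. With replicate values of 12 and 9.97 (sum 22.0), it overlapped an NMDA peak with 14.4 and 12.1 (sum 26.5). It was the 1 shared site among them. An NMDA peak 89.2 kb from Egr1, at the mitochondrial chaperone gene Hspa9, had 11 and 14.6. An NMDA peak 79.4 kb from Nr4a1, at the start of the activin receptor gene Acvr1b, had 7.77 and 11.2. Resting peaks alone lay near Kdm3b (18.5), Bin3 (38), Sorbs3 (31.9), Noto (38.7) and Krt80 (35.3).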
